A study of Mus musculus with 2 samples.

Results

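The aryl hydrocarbon receptor gene Ahr and 3 genes that it is known to induce, Ahrr, Tiparp and Cyp1b1, were followed across immune cell subsets of the mouse colon. These 4 genes were taken by symbol from 32285 listed genes, and each symbol matched 1 row. The data are single-cell 3′ RNA libraries of CD45+ gut lamina propria cells, 1 library named CD163_FL and 1 library named CD163_NC. The series title speaks of wild-type mice and of mice lacking CD163+ macrophages. The labels tie neither kind of mouse to a library, so no genotype is assigned here, and the labels give no strain, age, sex or number of mice for a library. Colon cells were enriched on a Percoll gradient and sorted, with 7-AAD used against dead cells. With 1 library for each name there is no replicate. All intervals below are 95% intervals that cover counting error only, neither the spread between cells nor that between mice, and no p-value is given.

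After filtering, 13715 cells of CD163_FL and 9756 cells of CD163_NC were kept, with medians of 6462 and 6040 unique molecular identifiers (UMIs, counted RNA molecules) per cell. Ptprc, the gene of CD45, had a UMI in 94.2% of CD163_FL cells and 87.1% of CD163_NC cells. Cells were placed into 24 lymphoid and myeloid subsets by the marker transcripts they held, which took in 9117 CD163_FL cells (66.5%) and 6652 CD163_NC cells (68.2%). The remaining cells met no gate or a gate of other cells, and the 4475 and 2877 cells in no gate held 28.2% and 21.9% of all Ahr UMIs. Levels are given in CPM, the summed UMIs of a gene in a subset for each 1000000 summed UMIs of all genes there. In 19 subsets both libraries had at least 50 cells, and the libraries were compared in these. The libraries shared 38 cell barcodes among kept cells.

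The aryl hydrocarbon receptor is a transcription factor that waits in the cytosol in a complex with heat shock protein 90 and the co-chaperone p23. Ligands from diet, microbes and tryptophan breakdown release it into the nucleus, where it pairs with ARNT and binds a short DNA core. In the gut it is known for maintaining innate lymphoid cells and intraepithelial lymphocytes. Ahrr encodes a repressor that competes for ARNT, and Tiparp encodes a mono-ADP-ribosyltransferase that marks the receptor for loss, so both act as negative feedback. Cyp1b1 encodes a cytochrome P450 that oxidizes xenobiotics and ligands of the receptor.

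In the GRCm38 annotation Ahr (ENSMUSG00000019256) lies at chr12:35497974-35535038 on the minus strand. Ahrr (ENSMUSG00000021575) lies at chr13:74211118-74292331 on the minus strand, Tiparp (ENSMUSG00000034640) at chr3:65528410-65555518 on the plus strand and Cyp1b1 (ENSMUSG00000024087) at chr17:79701537-79715061 on the minus strand. The sequences upstream of the 3 target genes are shown because the receptor is known to act through such regions. They come from RefSeq promoter records (GRCm38.p6), are read 5′ to 3′ on the strand of the gene, and stop where the annotated gene begins. Capitals mark the receptor's core motif GCGTG on either strand (read as CACGC when on the other strand). The regions are chr13:74292332-74292581 (minus strand) for Ahrr, chr3:65528197-65528409 (plus strand) for Tiparp and chr17:79715062-79715311 (minus strand) for Cyp1b1.
Ahrr: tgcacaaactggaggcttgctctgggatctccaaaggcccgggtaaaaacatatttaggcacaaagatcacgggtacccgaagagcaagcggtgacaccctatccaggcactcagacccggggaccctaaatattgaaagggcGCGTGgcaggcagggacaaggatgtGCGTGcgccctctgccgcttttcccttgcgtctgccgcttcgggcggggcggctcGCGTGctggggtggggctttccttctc
Tiparp: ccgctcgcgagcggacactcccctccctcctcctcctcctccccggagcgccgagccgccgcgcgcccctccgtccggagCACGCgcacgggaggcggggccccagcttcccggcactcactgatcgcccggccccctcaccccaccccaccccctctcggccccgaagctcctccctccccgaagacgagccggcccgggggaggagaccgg
Cyp1b1: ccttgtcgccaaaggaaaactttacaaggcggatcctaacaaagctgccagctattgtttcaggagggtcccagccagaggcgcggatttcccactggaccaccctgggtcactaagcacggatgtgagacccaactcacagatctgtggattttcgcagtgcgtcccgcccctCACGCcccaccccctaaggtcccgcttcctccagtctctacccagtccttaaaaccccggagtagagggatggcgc
Ahrr held 3 copies of the core within 250 bases of its start, all on the gene's own strand and between 107 and 27 bases before the start. Tiparp held 1 copy, on the other strand, 170 bases before the end of its 250-base window. The annotated Tiparp gene begins within that window, so 213 bases are printed and the core lies nearer to the annotated start. Cyp1b1 held 1 copy, on the other strand, 76 bases before the start. Among 32851 promoter records of the same length, 28.2% held at least 1 core and 2.77% held at least 3. The longer form TNGCGTG, whose last letters are the same core, was found once in Ahrr and not in the windows of Tiparp and Cyp1b1, and 4.10% of all records held it. These matches describe letters only and do not show binding.

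Ahr was highest in mast cells, followed by conventional dendritic cells (DCs) and type 2 innate lymphoid cells (ILC2), and was at most 16.7 CPM in plasma cells, CD8 T cells, neutrophils and granulocyte progenitors. Mast cells, the granulocytes of allergy and of parasite defence, had 540.7 CPM of Ahr in CD163_FL (468 to 621, 199 UMIs in 48 cells) and 658.5 in CD163_NC (558 to 772, 152 UMIs in 39 cells). Mast cells fell short of 50 cells in both libraries and were added to this ranking after their level had been seen. Kit, the stem cell factor receptor of mast cells and not a gene of the gate, had 1003 CPM in these cells of CD163_FL and 710.4 in those of CD163_NC, against 46.8 and 18.9 over all kept cells. The gap to the next subset exceeded the counting interval in both libraries, 1.79-fold over DCs in CD163_FL and 4.28-fold over ILC2 in CD163_NC. The 5 mast cells with the most Ahr held 48.7% of these UMIs in CD163_FL and 57.2% in CD163_NC, so the size of the gap rests on few cells. Between the libraries the log2 ratio of Ahr in mast cells was -0.28 (-0.60 to 0.03), within 1.5-fold, where 25.7% of 4274 genes were higher and 15.6% lower.

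ILC2, which make Il5 and Il13 at barrier surfaces, had 212.7 CPM of Ahr in CD163_FL (404 UMIs) and 153.8 in CD163_NC (147 UMIs). Conventional DCs, which carry antigen to T cells, had 301.7 in CD163_FL and 128.2 in CD163_NC. In CD163_FL the DCs stood apart from ILC2, while in CD163_NC neither ILC2 and DCs nor DCs and regulatory T (Treg) cells, the next in order, differed beyond counting error. The interval of ILC2 in CD163_NC (130 to 180.8) lay above that of Treg cells (71.1 to 126.4). Follicular B cells, resting B cells that carry IgD, had 81.4 in CD163_FL and 85.1 in CD163_NC. In germinal center B cells the level was 27.9 in CD163_FL and 26.3 in CD163_NC, and in non-cycling plasma cells, which secrete antibody, it was 15.9 and 10.1. So Ahr made up a lower share of UMIs in plasma cells than in follicular B cells in each library. The size of this gap depends on depth, with median UMIs per cell of 16468 and 16882 in non-cycling plasma cells and 4475 and 5156 in follicular B cells. Counted by cell, Ahr had 263 UMIs in 1009 non-cycling plasma cells and 240 in 593 follicular B cells of CD163_FL. In CD163_NC it had 172 in 1040 and 592 in 1161. CD8 T cells had 16.1 and 16.7 in CD163_FL and CD163_NC. The lowest level was that of granulocyte progenitors in CD163_NC, 3.77 from 4 UMIs in 77 cells, and CD163_FL had no such cells.

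Among T cells, the gamma delta and intraepithelial-like cells held more Ahr than naive-like, Th1 and CD8 cells. Intraepithelial-like T cells, which lack Cd4, Cd8b1 and the delta chain gene, had 78.6 and 72.8 CPM in CD163_FL and CD163_NC, and gamma delta T cells outside the type 17 gate had 87.3 and 63.3. Treg cells, with 60.1 and 95.9, lay in the same range. Naive-like CD4 T cells had 23.0 and 11.4, and type 1 helper (Th1) cells had 18.9 and 24.7. Type 17 helper (Th17) cells had 48.6 and 36.2, between these levels. Type 3 innate lymphoid cells (ILC3), a known site of Ahr, had 66.8 in CD163_FL from 64 cells and 61.6 in CD163_NC from 3 UMIs in 9 cells.

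Mast cells also led at equal depth. Each cell was thinned at random to 2000 UMIs and shallower cells were left out. An Ahr UMI was then found in 56.1% of 41 mast cells of CD163_FL and 62.1% of 29 mast cells of CD163_NC, against 64.6% and 64.1% without thinning. The thinned share was 33.6% in DCs of CD163_FL and 12.0% in DCs of CD163_NC, 29.0% and 21.9% in ILC2, and 3.49% and 2.42% in non-cycling plasma cells. Unthinned, plasma cells had a UMI in 17.2% and 10.4% of cells at median depths of 16468 and 16882 UMIs, so unthinned shares of plasma cells cannot be set beside those of shallower cells. Free RNA was not separated from these low shares. The 29 thinned mast cells of CD163_NC held 3 or more Ahr UMIs in 24.1% of cells, against 7.32% of the 41 in CD163_FL.

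**Figure D1:**
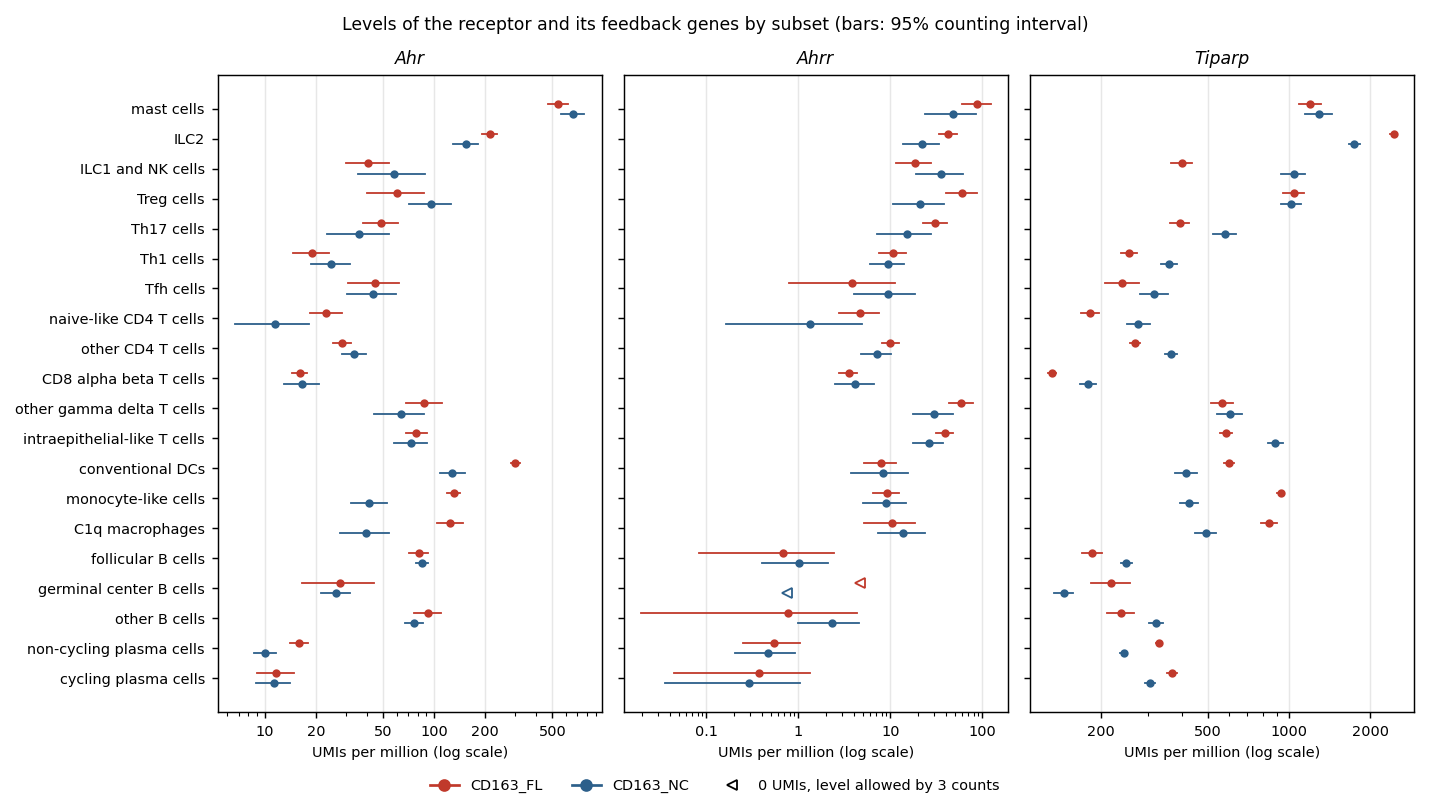
Levels of Ahr, Ahrr and Tiparp (CPM, log scale) in 20 subsets, mast cells included, with CD163_FL drawn above CD163_NC. Points are summed levels, bars are 95% counting intervals and open triangles are the level that 3 counts would give where 0 UMIs were found. Ahr reaches 540.7 and 658.5 in mast cells, Tiparp 2438 and 1746 in ILC2, and Ahrr is at most 2.29 in the B and plasma cell subsets that held an Ahrr UMI.

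**Figure D2:**
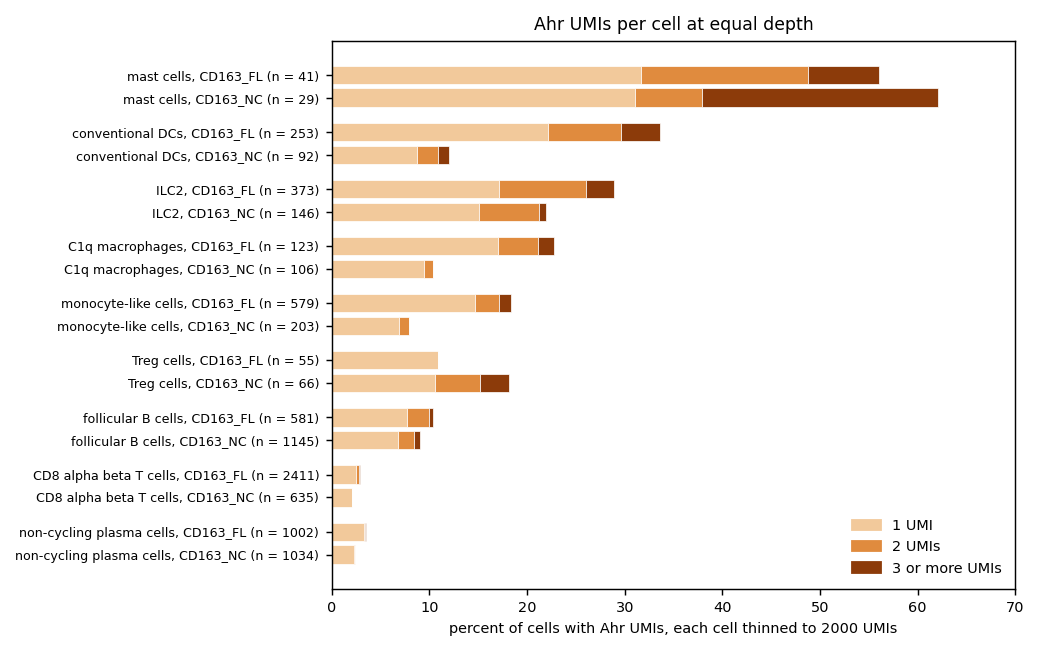
Percent of cells with 1, 2 or at least 3 Ahr UMIs after thinning each cell to 2000 UMIs, with CD163_FL above CD163_NC for 9 subsets and the number of cells in the row names. The bars of DCs, C1q macrophages and monocyte-like cells are longer in CD163_FL, and those of follicular B cells, CD8 T cells and plasma cells are short in both.

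Ahrr, the repressor, was a low transcript. Among ranked subsets its highest level was in mast cells, though not after thinning, where they had rank 2 in CD163_FL and 5 in CD163_NC. In mast cells it had 86.9 CPM in CD163_FL (32 UMIs in 10 cells) and 47.7 in CD163_NC (11 UMIs in 4 cells). ILC3 had 23.2 in CD163_FL and, in CD163_NC, 82.1 (22.4 to 210.2) from 4 UMIs in 9 cells, too few cells to be ranked. Treg cells, which restrain other T cells, had 60.1 in CD163_FL and 21.1 in CD163_NC. Gamma delta T cells outside the type 17 gate had 59.0 and 29.9, ILC2 had 42.7 and 22.0, and intraepithelial-like T cells had 38.9 and 26.0. Type 1 innate lymphoid and natural killer cells (ILC1 and NK cells) had 18.3 in CD163_FL and 35.7 in CD163_NC (22 and 13 UMIs), the second rank in CD163_NC. All 22 and 13 UMIs lay in those cells of the gate that fell in cluster 18, led by Il22. The gate's cells in cluster 17, led by natural killer cell genes, held 0 in both libraries (clusters are described below). No neighbours in the order of Ahrr levels for which a ratio could be formed differed beyond counting error in either library.

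By CPM, phagocytes and DCs had little Ahrr despite their Ahr. DCs had 7.85 CPM of Ahrr in CD163_FL and 8.24 in CD163_NC, monocyte-like cells had 9.06 and 8.88, and C1q macrophages had 10.4 and 13.8. After thinning, Ahrr was found in 1.19%, 1.73% and 3.25% of these cells in CD163_FL, against 8.31% of ILC2. In CD163_NC this order did not hold, with 3.26%, 3.45% and 3.77% against 1.37% of ILC2. Few cells with a UMI stand behind these CD163_NC shares, 3, 7, 4 and 2. Follicular B cells, with Ahr levels near those of intraepithelial-like T cells, had 2 Ahrr UMIs in 593 cells of CD163_FL and 7 in 1161 cells of CD163_NC, or 0.679 and 1.01 CPM. Germinal center B cells had none in 63 cells of CD163_FL or 258 cells of CD163_NC, which allows levels of up to 4.66 and 0.750. Plasma cells had the lowest levels above 0, with 0.543 and 0.468 in non-cycling and 0.371 and 0.289 in cycling plasma cells of CD163_FL and CD163_NC.

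Tiparp was the most abundant of the 4 genes and was found in every subset. ILC2 were highest, at 2438 CPM in CD163_FL (2368 to 2509) and 1746 in CD163_NC (1663 to 1832). They stood apart from the next ranked subset in both libraries. ILC3 of CD163_NC, not ranked because they were 9 cells, had 1395 (1084 to 1769), an interval that overlaps that of ILC2. ILC3 of CD163_FL followed with 1484, mast cells had 1198 in CD163_FL and 1291 in CD163_NC, and Treg cells had 1038 and 1020. CD8 T cells were low, with 131.8 and 179.6, and granulocyte progenitors of CD163_NC were lowest with 68.8. After thinning, a Tiparp UMI was found in 79.6% of ILC2 of CD163_FL and 80.1% of ILC2 of CD163_NC, and in 19.1% and 27.1% of CD8 T cells.

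Cyp1b1 was nearly absent. All kept cells together gave 13 UMIs in 9 cells of CD163_FL and 16 UMIs in 14 cells of CD163_NC, or 0.110 and 0.179 CPM. Mast cells held 5 of the 13 UMIs in CD163_FL and 1 of the 16 in CD163_NC, ILC2 held 0 and 3, and cells in no gate held 5 and 6. No subset reached the 20 UMIs set for a comparison. Cyp1a1, Cyp1a2 and Aldh3a1, further enzymes of this group, were as sparse. Cyp1a1, the classical target of the receptor, had 19 UMIs in CD163_FL and 8 in CD163_NC, and 4 of the 19 lay in 2 mast cells. Cyp1a2 had 2 and 1 UMIs, and Aldh3a1 had 7 and 5. At this depth a difference between the libraries in these 4 genes could not be measured.

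Between the libraries, a gene was counted as higher or lower when its level in CD163_FL differed from that in CD163_NC by at least 1.5-fold and both libraries together held at least 20 UMIs. Over all genes with that many UMIs, between 11.7% and 23% per subset were higher and between 12.7% and 33.7% were lower. Ahr was higher in 5 of 19 subsets (26.3%) and lower in 1 (5.26%). Ahrr was measured in 12 subsets and was higher in 4 (33.3%) and lower in 1 (8.33%). Tiparp was higher in 2 of 19 (10.5%) and lower in 3 (15.8%). These shares lie near or not far beyond the shares over all genes, so the counts alone set none of the genes apart, and the subsets share their library. Over all kept cells Ahr had 51.9 CPM in CD163_FL and 34.8 in CD163_NC, Ahrr had 8.22 and 4.15, and Tiparp had 382.7 and 317.0, values that also carry the different cell make-up of the libraries.

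**Figure D3:**
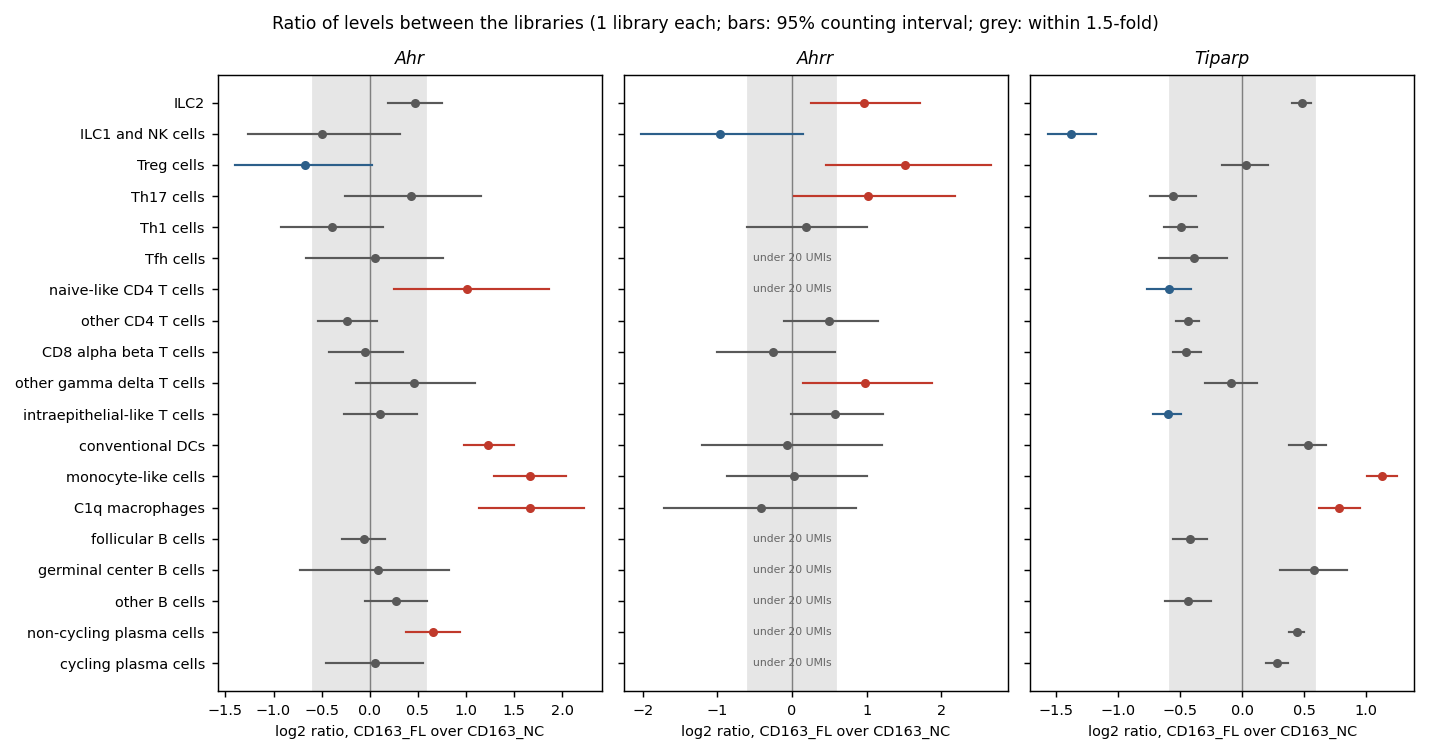
Log2 ratio of the level in CD163_FL over that in CD163_NC for Ahr, Ahrr and Tiparp in 19 subsets. Points are ratios of 1 library to 1 library, bars are 95% counting intervals, the grey band is within 1.5-fold, and subsets under 20 UMIs carry no point. Ahr lies at 1.66 in monocyte-like cells and C1q macrophages, where Ahrr lies at 0.03 and -0.41.

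Of the 19 subsets, the phagocytes had the highest Ahr ratios. Monocyte-like cells, phagocytes with monocyte transcripts and without C1q transcripts, had 130.5 CPM of Ahr in CD163_FL (533 UMIs in 604 cells) and 41.5 in CD163_NC (70 UMIs in 226 cells). The ratio was 3.15 (log2 1.66, 1.29 to 2.04). In C1q macrophages, which express complement C1q and clear dead cells, Ahr had 124.6 in CD163_FL (132 UMIs in 131 cells) and 39.3 in CD163_NC (37 UMIs in 115 cells), a log2 ratio of 1.66 (1.13 to 2.23). Here 19.5% of 9638 genes in monocyte-like cells and 23% of 7339 genes in C1q macrophages were higher past the same limit. Cells with UMIs of the DC genes Flt3 or Zbtb46 were kept out of both gates.

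Tiparp was higher in these cells too, while the Ahrr ratios lay within 1.5-fold. Tiparp had 931.1 CPM in CD163_FL and 425.7 in CD163_NC in monocyte-like cells (log2 ratio 1.13, 1.01 to 1.25). In C1q macrophages it had 843.8 in CD163_FL and 490.0 in CD163_NC (0.78, 0.62 to 0.95). Ahrr had 37 UMIs in CD163_FL and 15 in CD163_NC in monocyte-like cells (0.03, -0.87 to 1.00) and 11 and 13 in C1q macrophages (-0.41, -1.71 to 0.86), so differences up to these bounds could not be seen. A cluster made without the 4 genes (cluster 0, led by Cxcl2, Cd14 and Clec4e) held 91.7% of the CD163_FL and 90.7% of the CD163_NC monocyte-like cells. Within it their log2 ratios were 1.47 for Ahr and 1.02 for Tiparp.

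The phagocytes of the libraries also differed in other ways. Of 18 genes induced by tissue dissociation, a list chosen after values were seen, 1 was higher and 12 were lower in monocyte-like cells, with summed levels of 13104 CPM in CD163_FL and 19423 in CD163_NC. In C1q macrophages 0 were higher and 14 lower, with sums of 10839 and 21311. Over all genes 33.7% were lower in monocyte-like cells and 28.8% in C1q macrophages. Lyz2, a lysozyme of monocytes and macrophages and 1 of the genes of the gate, had 3718 in CD163_FL and 8375 in CD163_NC in monocyte-like cells, and Apoe, a lipid carrier of macrophages, had 926.9 and 5350 in C1q macrophages. The part of these differences in the Ahr and Tiparp ratios was not tested. The median log2 ratio over all genes in monocyte-like cells was -0.21, and relative to it the Tiparp ratio was 1.34.

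In conventional DCs Ahr had 1077 UMIs in 254 cells of CD163_FL and 140 UMIs in 92 cells of CD163_NC, 301.7 and 128.2 CPM (log2 ratio 1.23), where 14.7% of 9639 genes were higher and 30.4% lower. The ratio was 2.35-fold (1.97 to 2.83). In CD163_NC the 5 cells with the most Ahr held 47.1% of these UMIs. The DC gate was not the same mixture in both libraries. Cluster 2, led by Cst3, held 89.0% of its cells in CD163_FL and 54.4% in CD163_NC. Siglech, a marker of plasmacytoid DCs and their precursors, had 16.3 CPM in CD163_FL and 281.2 in CD163_NC, and 19 CD163_NC cells of the gate lay in cluster 24, led by Mpo and Prtn3, with an Ahr level of 8.63. Within cluster 2 Ahr was 309.7 in CD163_FL and 194.2 in CD163_NC, and the log2 ratio was 0.67 (0.41 to 0.95). Tiparp in the DC gate had a log2 ratio of 0.53 (0.38 to 0.68), and 0.29 (0.11 to 0.46) within cluster 2.

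Type 1 DCs, known for cross-presenting antigen, were taken here as DCs with at least 2 of Xcr1, Clec9a, Cadm1 and Batf3 and no type 2 marker, a division chosen after values were seen. They had 354.3 CPM of Ahr in CD163_FL (621 UMIs in 88 cells) and 263.5 in CD163_NC (63 UMIs in 15 cells), a log2 ratio of 0.43 (0.05 to 0.82), within 1.5-fold. Type 2 DCs had 229.1 in CD163_FL (187 UMIs in 72 cells) and 33.8 in CD163_NC (11 UMIs in 4 of 25 cells). Fewer than 50 CD163_NC cells stand behind both values.

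**Figure D4:**
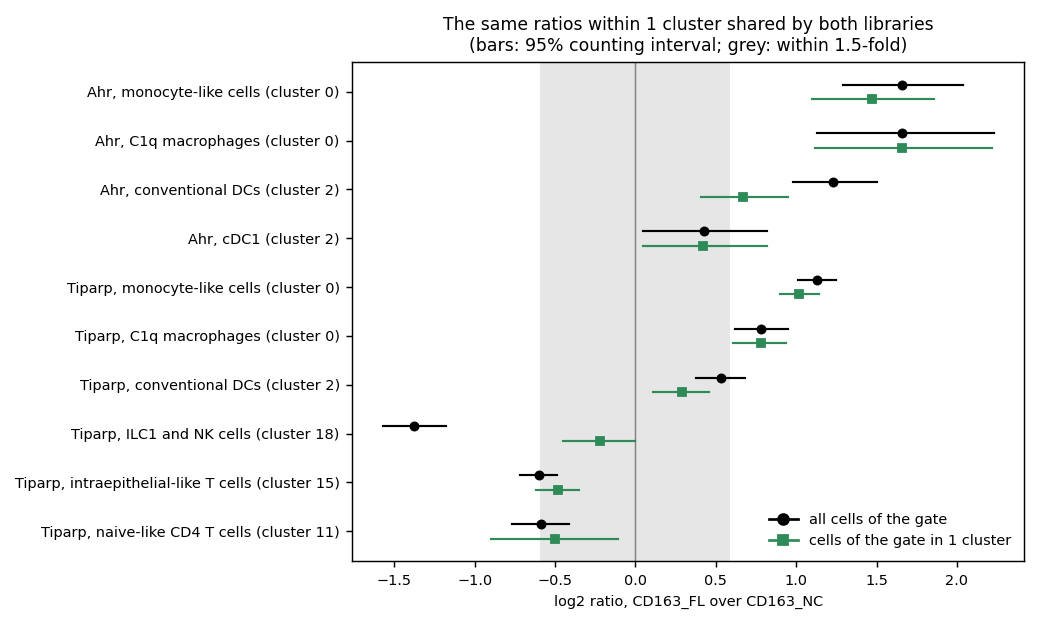
Log2 ratios of CD163_FL over CD163_NC for Ahr and Tiparp in all cells of a gate (black circles) and in those of its cells that fell in 1 cluster held by both libraries (green squares), with 95% counting intervals and the 1.5-fold band in grey. The phagocyte ratios keep their side, but they rest on nearly the same cells. Cluster 0 holds 100% and 99.1% of C1q macrophages in CD163_FL and CD163_NC, and 91.7% and 90.7% of monocyte-like cells. Ahr in DCs moves to 0.67, and Tiparp in ILC1 and NK cells moves to -0.22.

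Among innate lymphoid cells, Ahrr in ILC2 had 42.7 CPM in CD163_FL (81 UMIs) and 22.0 in CD163_NC (21 UMIs), a log2 ratio of 0.96 (0.25 to 1.72), where 17.9% of 8409 genes were higher. Ahr and Tiparp in ILC2 were also above CD163_NC, by log2 ratios of 0.47 and 0.48, within 1.5-fold. One cluster, cluster 12, held 93.7% of the ILC2 of CD163_FL and 94.6% of those of CD163_NC, and within it Ahrr was at 0.88 (0.17 to 1.65).

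The gate of ILC1 and NK cells gave the lowest Tiparp ratio. Tiparp had 399.9 CPM in CD163_FL (480 UMIs in 231 cells) and 1039 in CD163_NC (378 UMIs in 66 cells), a log2 ratio of -1.38 (-1.57 to -1.18), where 20.4% of 6760 genes were higher and 21% lower. Different clusters held most of the gate, 73.6% in cluster 17 in CD163_FL and 63.6% in cluster 18 in CD163_NC. Cluster 17 was led by Klra4, Klra8 and Prf1, receptors and a pore protein of natural killer cells, and cluster 18 by Il22, a cytokine of other innate lymphoid cells. In cluster 17 Tiparp was 135.3 in CD163_FL and 181.4 in CD163_NC, and Ahrr had 0 UMIs in both. In cluster 18 Tiparp was 1223 in 46 CD163_FL cells and 1429 in 42 CD163_NC cells (-0.22, -0.45 to 0.00). Ahr in that cluster was 121.6 and 67.3 (0.85, -0.04 to 1.81). Within the same cluster the Tiparp levels thus lay within 1.5-fold, and with subsets from clusters the ratio was -0.57, also within 1.5-fold.

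In Treg cells the receptor and its repressor differed in opposite directions. Ahr had 60.1 CPM in CD163_FL (28 UMIs in 55 cells) and 95.9 in CD163_NC (50 UMIs in 67 cells), with a log2 ratio of -0.67 (-1.40 to 0.02), where 13.4% of 5921 genes were lower and 19.6% higher. The interval takes in no difference, and the ratio was within 1.5-fold with called doublets kept (-0.45) and with subsets from clusters (-0.52). Ahrr had 28 UMIs in 12 CD163_FL cells and 11 UMIs in 9 CD163_NC cells (1.51, 0.46 to 2.66). In CD163_FL the 5 Treg cells with the most Ahrr held 75.0% of its UMIs and in CD163_NC 63.6%, so these ratios rest on few cells. Tiparp was at 0.03 (-0.16 to 0.21).

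Th17 cells, makers of Il17a, had Ahrr at a log2 ratio of 1.02 (0.02 to 2.18, 46 and 10 UMIs in CD163_FL and CD163_NC), where 21.1% of 7851 genes were higher. With at most 5% mitochondrial UMIs this ratio was 0.53, within 1.5-fold. Gamma delta T cells outside the type 17 gate had it at 0.98 (0.15 to 1.88, 46 and 17 UMIs), where 22.2% of 6693 genes were higher. In 1 cluster shared by both libraries these ratios were 0.99 (-0.44 to 2.63) and 0.54 (-0.29 to 1.44). In naive-like CD4 T cells Ahr had 83 UMIs in CD163_FL and 17 in CD163_NC (1.01, 0.25 to 1.86, where 22.5% of 9391 genes were higher), but taken from clusters the ratio was -0.45. Tiparp was lower in naive-like CD4 T cells (-0.59, with 15.6% of genes lower) and in intraepithelial-like T cells (-0.60, with 17.6% of 9202 genes lower). The largest share of naive-like cells lay in cluster 3 in CD163_FL (45.7%) and in cluster 11 in CD163_NC (62.7%). Within single clusters the Tiparp ratio of naive-like cells was -0.50 (-0.90 to -0.11) in cluster 11 and -0.68 (-1.21 to -0.15) in cluster 10, and that of intraepithelial-like cells was -0.48 (-0.62 to -0.35) in cluster 15. Over the naive-like gate the Tiparp ratio came within 1.5-fold after thinning (-0.39), with subsets from clusters (-0.14) and with called doublets kept (-0.58), and in intraepithelial-like cells with at most 5% mitochondrial UMIs (-0.58). In Th17 cells of cluster 5, Ahr had 65.7 CPM in 64 CD163_FL cells and 17.7 in 47 CD163_NC cells (1.90, 0.61 to 3.45), while over the whole gate the ratio was 0.43. The Th1, follicular helper (Tfh), other CD4 and CD8 gates likewise had a different main cluster in each library. In CD8 T cells the Tiparp ratio was 0.97 (0.73 to 1.21) within cluster 1 and -0.52 (-1.04 to 0.05) within cluster 6, so the ratio of the whole gate, -0.45, does not describe each of its parts.

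Dissociation genes differed in T cells and in ILC1 and NK cells too. In naive-like CD4 T cells 15 of 18 were lower and 0 higher, with sums of 5887 in CD163_FL and 11826 in CD163_NC. In intraepithelial-like T cells 15 were lower and 0 higher, with sums of 9837 and 17259, and in ILC1 and NK cells 14 were lower and 0 higher, with sums of 10291 and 19959. Over all genes 15.6% were lower in naive-like CD4 T cells, 17.6% in intraepithelial-like T cells and 21% in ILC1 and NK cells. In ILC2 only 2 were lower and 1 higher, where 21.2% of 8409 genes were lower and 17.9% higher. Their part in the Tiparp ratios was not tested.

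Among the 5 B lineage subsets, Ahr was higher in 1 and lower in 0. Ahr in follicular B cells had a log2 ratio of -0.06 (-0.29 to 0.16) from 240 UMIs in CD163_FL and 592 in CD163_NC, and in germinal center B cells it had 0.09 (-0.72 to 0.82), where 19.8% of 9592 genes were higher. Non-cycling plasma cells had 263 and 172 Ahr UMIs (0.66, 0.38 to 0.94), where 15.9% of 12274 genes were higher, while cycling plasma cells, which hold transcripts of dividing cells, had 0.05 (-0.45 to 0.55). Tiparp ranged from -0.44 in other B cells to 0.58 in germinal center B cells, within 1.5-fold in all 5 B lineage subsets.

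Beyond the 4 genes, 37 further genes of the pathway were grouped in 7 lists that also hold the 4. Arnt, the receptor's binding partner, had 96.6 CPM over all CD163_FL cells and 72.8 over all CD163_NC cells and was highest in follicular B cells, at 221.2 and 184.6. The chaperone genes Hsp90aa1 and Hsp90ab1 were lowest in non-cycling plasma cells, Hsp90aa1 with 446.2 CPM in CD163_FL and 293 in CD163_NC and Hsp90ab1 with 361.5 and 366.1. As with Ahr, these are shares of the UMIs of deep cells and not levels per cell.

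The uptake pair Slc7a5 and Slc3a2, which form a transporter of tryptophan and kynurenine, was compared in the phagocytes and DCs. Slc3a2 had log2 ratios of 0.86 (0.69 to 1.03) in monocyte-like cells, 0.87 in C1q macrophages and 0.96 in DCs, where 19.5%, 23% and 14.7% of all genes were higher. Slc7a5 was at -0.09, 0.31 and 0.85 in the same subsets. Higher levels of the pair were not particular to these cells. Over the 19 compared subsets its median log2 ratio ran from 0.21 in Th1 cells to 1.02 in cycling plasma cells. Over all kept cells Slc3a2 had 370.8 CPM in CD163_FL and 208.9 in CD163_NC. Of the enzymes that make or break tryptophan ligands, 4 of 8 were measured in DCs, 1 higher and 2 lower with a median of -0.73, against 14.7% higher, 30.4% lower and a median of -0.21 over all genes there. Il4i1, an oxidase of aromatic amino acids, had 148 UMIs in CD163_FL and 3 in CD163_NC there, and Kmo, the kynurenine hydroxylase, had 59.4 and 162.1 CPM. Kynu, the kynureninase, was high in DCs at 123.0 and 124.6. Among the 19 compared subsets, which leave out mast cells, Tph1, the first enzyme of serotonin synthesis, was highest in ILC2 with 27.9 and 37.7. All kept cells together held 389 Tph1 UMIs in CD163_FL and 197 in CD163_NC. Ido1 had at most 3.64 in any compared subset of CD163_FL and 1.59 in CD163_NC. Over all kept cells it had 4.21 CPM in CD163_FL (497 UMIs) and 0.681 in CD163_NC (61 UMIs). The CD163_FL value lies above every compared subset, so cells outside these subsets held more of it.

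Of 9 xenobiotic targets, Cyp1b1 among them, none was measured in ILC2 or Treg cells and 2 in monocyte-like cells. The quinone reductase Nqo1 had 24 and 2 UMIs there (2.31, 0.30 to 5.44), and 24 and 0 in DCs, at least 1.29 log2 units higher against 3 counts. Gstm1, a glutathione transferase, was lower in monocyte-like cells (-0.78, -1.27 to -0.28). Of 7 immune genes linked to the receptor, 3 of 5 measured were higher and 0 lower in monocyte-like cells (median 0.80), against 19.5% higher, 33.7% lower and a median of -0.21 over all genes. In C1q macrophages 3 of 4 measured were higher and 1 lower (median 0.90), against 23% higher, 28.8% lower and a median of -0.09. Medians of this size were not particular to the phagocytes. Over the 19 compared subsets the median of this list ran from -0.29 in Th1 cells to 2.41 in naive-like CD4 T cells. It was 1.00 in intraepithelial-like T cells and 0.94 in Tfh cells. Il10, a cytokine that limits inflammation, had 407.7 CPM in CD163_FL and 84.7 in CD163_NC in monocyte-like cells (2.27, 2.02 to 2.52), and 622.0 and 278.5 in C1q macrophages (1.16, 0.95 to 1.37). The growth factor receptor Kit had 644.4 and 337.0 in ILC2 (0.94, 0.76 to 1.12). Il22, a cytokine that acts on epithelium, had 1547 UMIs in 64 ILC3 of CD163_FL and 34 UMIs in 9 ILC3 of CD163_NC, and in DCs of CD163_FL 153 UMIs lay in 3 cells. Of 5 transcription factors known to interact with the receptor, Hif1a (0.94, 0.79 to 1.08) and Rela (0.94, 0.69 to 1.19) were higher among 4 measured in monocyte-like cells, and 0 were lower (median 0.74). The median of this list was 0.72 in DCs, 0.71 in germinal center B cells and, at the lowest, -0.42 in Tfh cells. Over all kept cells Hif1a had 495.0 CPM in CD163_FL and 266.5 in CD163_NC, and Rela had 91.1 and 50.4.

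Pearson's r of log2 levels over the 19 subsets, averaged over the libraries with 1 added to each level, named the genes most like each member among 10477 genes with at least 500 UMIs. These values are descriptions without a test, since the subsets share both libraries. Nearest to Ahr were Dapp1 (0.891), Tbc1d32 (0.854), Dstyk (0.836), Tsc22d1 (0.819) and Cyp4f13 (0.817). Nearest to Ahrr were Arrb1 (0.92), Fosl2 (0.892), Comtd1 (0.889), Gpr34 (0.889) and Socs1 (0.887), and nearest to Tiparp were Src (0.825), Coro2a (0.820), Nfkbia (0.818), Pim3 (0.814) and Dusp1 (0.809). Nfkbia and Dusp1 are also in the dissociation list. Ahr had r of 0.531 with Ahrr and 0.652 with Tiparp, and Ahrr had 0.772 with Tiparp.

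Within subsets, cells with an Ahr UMI after thinning were compared with cells without one. In other CD4 T cells of CD163_FL, 53.7% of 41 cells with Ahr (37.4% to 69.3%) and 27.7% of 1028 cells without it held Tiparp. In CD163_NC the shares were 63.2% of 38 cells (46.0% to 78.2%) and 32.7% of 569 cells. This gate is mixed: its cells in cluster 5 had 114.8 CPM of Ahr and 1242 CPM of Tiparp in CD163_FL and 84.6 and 1230 in CD163_NC, against 16.4 and 222.3 in cluster 3 of CD163_FL and 29.5 and 385.1 in cluster 4 of CD163_NC. In monocyte-like cells of CD163_FL the shares with Tiparp were 76.4% of 106 cells with Ahr and 72.9% of 473 without, and in non-cycling plasma cells of CD163_FL they were 42.9% of 35 and 44.5% of 967.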

How the data were processed

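Deposited values are UMI counts per gene and cell barcode, made with Cell Ranger 7.1.0 per the file headers. The submitters' processing notes name mm10 and Seurat 4. The authors deposited 15270 CD163_FL and 10390 CD163_NC barcodes with 131306539 and 94729872 UMIs, and 49 barcodes occur in both. Barcodes under 500 UMIs or 200 genes, or over 10% mitochondrial UMIs, and called doublets were removed. The caller marked 4.40% and 2.47% of barcodes where 12.2% and 8.31% were expected, so doublets remain.

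Cells were gated by at least 2 distinct lineage markers (4 for plasma cells, 3 for neutrophils and phagocytes). The members and lists were chosen with earlier results of these data known. The counts for 1 of the lists are not reported here. Gates were revised over 3 versions, after cell numbers, cluster agreement and members' levels had been seen. The raised marker minimums, leaving out epithelial cells, showing mast cells and the limit of 30 cells were also chosen after seeing the data. The 26 Leiden clusters (resolution 1, 2000 variable genes, 30 components, 15 neighbours) were made without the members.

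Levels have exact Poisson intervals, shares Clopper-Pearson intervals and ratios exact conditional binomial intervals (95%). A count of 0 allows up to 3 counts, and a library at 0 was set to 3 in ratios. Named like genes are the 5 with the highest r for each member with at least 200 UMIs, among genes with at least 500, gate markers left out. The ratio step was tested on simulated data. Alternatives changed filters, scaling, depth, gates, clusters and limits. Tools were Python 3.11.15, numpy 2.4.6, scipy 1.17.1, pandas 2.3.3, scanpy 1.11.5, scikit-learn 1.9.0, igraph 0.11.9 and matplotlib 3.10.9.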

Additional observations from a re-analysis of the deposited data

Results flagged for a closer look

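Tiparp lay on opposite sides in 2 subsets under the same comparison of libraries. Its log2 ratio of CD163_FL over CD163_NC was 1.13 in monocyte-like cells and -1.38 in ILC1 and NK cells. The difference between these ratios was not tested, since each rests on 1 library per name. Within single clusters the ratios were 1.02 in monocyte-like cells (cluster 0) and -0.22 in ILC1 and NK cells (cluster 18).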

How the results depend on the processing

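No paired analysis was possible because each name has 1 library. Of 658 log2 ratios of the members under the alternatives, 627 stayed near their value, 30 moved and 1 reversed, Ahr in naive-like CD4 T cells, at -0.45 with subsets from clusters (the cause was not tested). With cells thinned to 2000 UMIs, which left 15 subsets measured for Ahr and 3 for Ahrr, Ahr was higher in 8 subsets, Ahrr in 2 and Tiparp in 4, and Ahrr was lower in 0. Thinning moved 17 of 37 ratios, Ahr in DCs to 1.63 among them. With a fold limit of 2, Ahr was lower in 0 subsets, Ahrr higher in 2 and lower in 0, and Tiparp higher in 1 and lower in 1. With subsets from clusters, Ahr was lower in 0 and Ahrr in 3. Ahr was lower in 0 subsets with called doublets kept and in 2 with at most 5% mitochondrial UMIs. Ahrr was lower in 0 with at least 50 UMIs for a ratio and in 0 with gate version 1, which gave 4 subsets with higher Tiparp. Shares over all genes are given for the main setting only, so the counts under these alternatives cannot be read as setting a gene apart. By Ahrr level, mast cells ranked first, but in CD163_FL they had rank 2 after thinning, by level and by share. In CD163_NC they had rank 5 by thinned level, 4 by thinned share and 2 with a gate of 3 markers. Counting error limits Ahrr and Cyp1b1 most, and the spread between mice was not measured.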
